A study of Homo sapiens with 36 samples.

Results

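The genes described here are IL6, CXCL8, CXCL1, CXCL2, CXCL3, CXCL5, IL1A, IL1B and IL33, which encode secreted interleukins and CXC chemokines. They were taken as a fixed list of 9 genes, out of 12573 protein-coding genes on chromosomes 1 to 12 and 20033 on all chromosomes. Their chromatin was read from 16 peak lists of chromatin immunoprecipitation followed by sequencing (ChIP-seq) in 2 human lung cell lines. A549 is a lung adenocarcinoma line, and BEAS-2B (B2B) is a line of immortalised bronchial epithelial cells. No treatment is given in the labels of either line, and all cells were grown in the same serum-containing medium. Of the 36 samples, 4 were input chromatin, and the other samples formed 2 replicates for each line and target. RNA polymerase II (pol II), H3K4me3, H3K27ac, the Mediator subunit Med1 and the Jun-family proteins JunB, Jun and JunD were profiled in both lines, and lists of CTCF and the cohesin subunit Rad21 were used for B2B. To see how the promoters and surroundings of these genes differed between the lines, peaks within 3 kb of any annotated start site and within 100 kb were collected.

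CXCL1, CXCL2, CXCL3, CXCL5 and CXCL8 are ligands of the neutrophil receptors CXCR1 and CXCR2 and lie next to each other on chromosome 4. IL6 signals through IL6R and the shared subunit IL6ST, IL1A and IL1B activate IL1R1, and IL33 is a nuclear alarmin that binds IL1RL1. In epithelial cells most of these genes are known as inducible targets of NF-kB, C/EBP factors and AP-1, the dimeric factor that contains Jun proteins. H3K4me3 and initiating pol II mark start sites, H3K27ac and Med1 mark active promoters and enhancers, and CTCF with Rad21 marks loop anchors and boundaries.

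Each list came from 2 merged replicates, so there was 1 list per line and target, no replicate error could be computed, and nothing was tested between the lines. A peak is given by its fold enrichment, taken as the pileup of fragments at the summit plus 1 over the local background of the caller plus 1, and by the percentile of its −log10 p among all peaks of its own list. Pileup and background were solved from the fold and the p-value. The line labels were checked at marker genes. CDKN2A and CDKN2B, of which A549 is known to lack both copies, had no peak within 3 kb in any of the 7 A549 lists and had pol II, H3K4me3, H3K27ac and Med1 peaks in B2B. MTAP, also part of this check, went another way, with pol II, H3K4me3 and H3K27ac peaks in both lines and Med1 in B2B alone. The epithelial keratin genes KRT8 and KRT18 had peaks in all 16 lists. EPCAM, also epithelial, had pol II, H3K4me3 and H3K27ac peaks in both lines. Its Med1, JunB, Jun and JunD peaks were in A549 alone, and in B2B it had CTCF but no Rad21. The leukocyte genes PTPRC and CD3E had no pol II, H3K27ac or Med1 peak in either line. CD3E had none in any list, whereas PTPRC had H3K4me3 in A549, Jun in both lines, and CTCF and Rad21 in B2B. Of the alveolar genes, SFTPB had no peak in any A549 list and Jun in B2B. NKX2-1 had pol II in A549 alone, H3K4me3 in both lines, and CTCF and Rad21 in B2B. It lies on chromosome 14, and some lists stop short of the last chromosomes. Of the basal genes, TP63 had pol II and H3K4me3, and KRT5 JunB and Jun, in A549 and no peak in B2B.

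The promoters on which the results turn are shown first. RefSeq promoter sequences (GRCh38.p14) matched all 9 genes, with 11 promoters. The 250 bases before each start site were searched on both strands for the AP-1 heptamer TGACTCA, for TATAAA, for the C/EBP motif TTGCNNAA and for the NF-kB consensus. Matches are in capitals, and the sequences were cut back to bases outside the annotated exons of the gene. The NF-kB match of CXCL3 and the TATAAA of CXCL8 lie in exons of longer transcripts and are therefore not shown. Apart from IL6, at most the last 200 bases are printed, which leaves out the TATAAA of IL1A. The IL6 sequence was read from hg38 and reaches further 5′, to include the AP-1 heptamer beside the JunD summit of B2B.
CXCL8 (chr4:73740319-73740518, plus strand): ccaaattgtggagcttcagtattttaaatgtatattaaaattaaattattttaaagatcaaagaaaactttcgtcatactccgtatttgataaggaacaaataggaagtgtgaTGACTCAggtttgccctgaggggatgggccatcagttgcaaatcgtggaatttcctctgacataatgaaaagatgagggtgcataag
CXCL1 (chr4:73869193-73869392, plus strand): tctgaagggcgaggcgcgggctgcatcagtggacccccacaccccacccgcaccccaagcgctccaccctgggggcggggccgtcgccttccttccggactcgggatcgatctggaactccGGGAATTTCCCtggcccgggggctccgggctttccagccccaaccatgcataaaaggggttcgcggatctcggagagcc
CXCL2 (chr4:74099197-74099396, minus strand): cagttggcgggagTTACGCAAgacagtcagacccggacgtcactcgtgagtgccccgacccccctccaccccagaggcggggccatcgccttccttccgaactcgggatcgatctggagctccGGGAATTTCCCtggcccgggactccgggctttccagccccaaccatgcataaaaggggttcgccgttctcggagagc
CXCL5 (chr4:73998678-73998877, minus strand): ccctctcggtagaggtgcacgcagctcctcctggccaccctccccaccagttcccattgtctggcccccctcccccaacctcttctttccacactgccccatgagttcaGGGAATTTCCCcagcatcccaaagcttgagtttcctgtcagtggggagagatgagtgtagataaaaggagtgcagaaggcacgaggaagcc
IL6 (chr7:22726904-22727146, plus strand): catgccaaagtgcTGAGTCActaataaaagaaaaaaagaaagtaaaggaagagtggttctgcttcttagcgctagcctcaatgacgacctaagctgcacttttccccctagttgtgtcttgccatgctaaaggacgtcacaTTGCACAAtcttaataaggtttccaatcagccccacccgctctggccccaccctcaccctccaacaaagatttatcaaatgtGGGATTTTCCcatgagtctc
IL1A (chr2:112784494-112784693, minus strand): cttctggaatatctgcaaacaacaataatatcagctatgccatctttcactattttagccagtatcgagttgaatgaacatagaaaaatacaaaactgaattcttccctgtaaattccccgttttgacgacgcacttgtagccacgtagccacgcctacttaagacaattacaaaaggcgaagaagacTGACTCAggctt
IL1B (chr2:112836817-112837016, minus strand): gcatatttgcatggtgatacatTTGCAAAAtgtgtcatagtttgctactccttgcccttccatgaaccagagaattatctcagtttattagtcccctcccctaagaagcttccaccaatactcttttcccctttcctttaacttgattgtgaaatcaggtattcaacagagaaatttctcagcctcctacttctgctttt

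The NF-kB consensus was found in 5 of the 9 genes (IL6, CXCL1, CXCL2, CXCL3 and CXCL5), beside 9.96% of 35116 promoters. In CXCL1, CXCL2 and CXCL3 it lay 68 to 79 bases before the start site, as a pair of overlapping matches on both strands. The AP-1 heptamer was found in 2 of the 9, CXCL8 and IL1A, beside 4.20% of promoters. C/EBP matches were present in IL6, CXCL2 and IL1B beside 9.05%, and TATAAA was present in CXCL8 and IL1A beside 10.7%. The TATAAA lay 26 to 31 bases before the start site in CXCL8 and 234 to 239 bases before it in IL1A. All these counts speak only of the letters searched, so a missing match does not show that a gene lacks such a site. The promoters of CXCL1, CXCL2 and CXCL3 are close copies. Aligned over their 250 bases, CXCL1 and CXCL3 shared 210 of 242 aligned bases, CXCL2 and CXCL3 shared 195 of 234, and CXCL1 and CXCL2 shared 181 of 243, with an unbroken shared run of 42 bases in the last pair. How reads that fit several places were treated is not given in the sources used here, so the signals of these 3 promoters are uncertain to that extent.

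In pol II at their promoters the genes split by line, apart from CXCL2 and CXCL8, called in both lines, and IL33, called in neither. The CXC genes carried promoter marks in A549 and a part of them in B2B, whereas IL6, IL1A and IL1B carried pol II in B2B and none in A549. Pol II was present within 3 kb of 5 of the 9 genes in A549 (all 5 CXC genes) and of 5 in B2B (CXCL2, CXCL8, IL6, IL1A and IL1B), beside 68.8% and 51.7% of the 12573 protein-coding genes on chromosomes 1 to 12. Pol II in A549 alone was found at CXCL1, CXCL3 and CXCL5, 3 of 9 beside 18.5% of all genes. Pol II in B2B alone was found at IL6, IL1A and IL1B, also 3 of 9, in a class that held 1.43% of all genes.

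H3K4me3 marked 5 of the 9 genes in each line, beside 74.6% of all genes in A549 and 63.1% in B2B. It was in A549 alone at CXCL8 and CXCL5 (12.8% of all genes) and in B2B alone at IL6 and IL1A (1.26%). H3K27ac marked 5 genes in A549 (73.5% of all genes) and 4 in B2B (64.3%), with CXCL5 in A549 alone (11.2%) and no member in B2B alone (2.02%). Med1 was at 4 genes in each line, beside 54.2% in A549 and 60.7% in B2B. It was in A549 alone at CXCL8 and CXCL5 (3.99% of all genes) and in B2B alone at IL6 and CXCL1 (10.5%). The counts per line of H3K4me3, H3K27ac and Med1 thus lay below the shares of all genes. That of pol II in B2B, 5 of 9 beside 51.7%, did not. With 9 genes such differences rest on few genes. The members differed from each other in the line that held the mark.

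**Figure D1:**
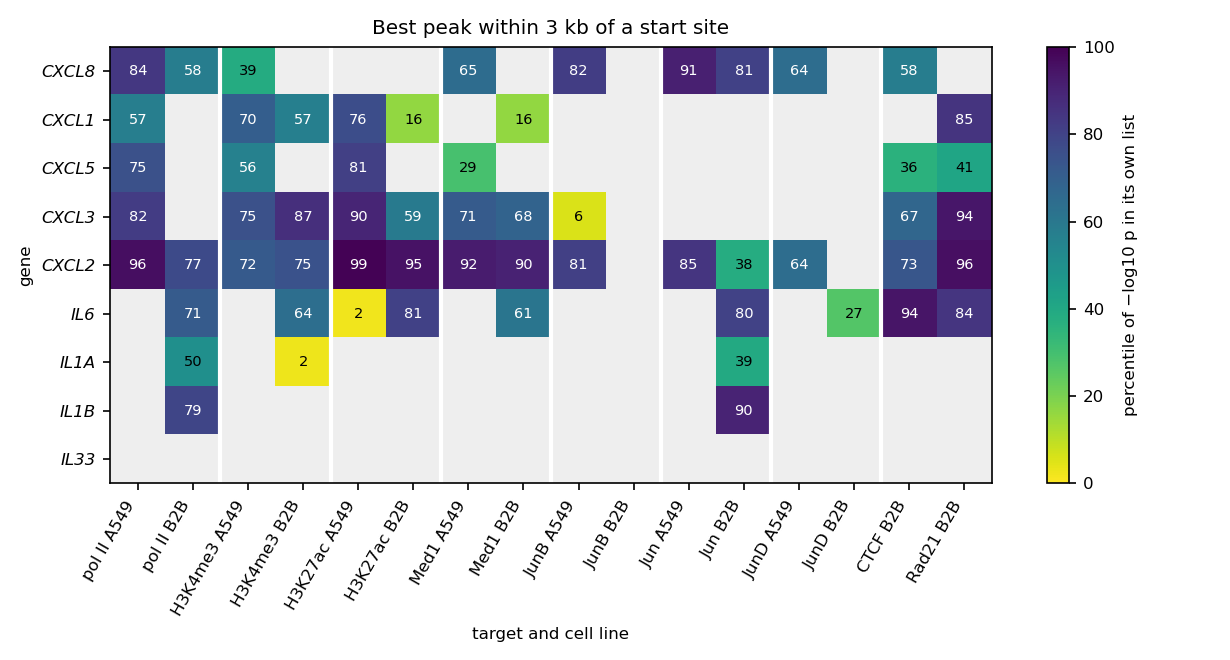
The 9 genes (rows) against the 16 peak lists (columns, target and cell line), with the percentile of −log10 p of the best peak within 3 kb in its own list (0 to 100) as colour and number. Grey cells hold no peak. CXCL2 filled 14 lists, IL33 none, and IL1A and IL1B only columns of B2B.

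CXCL2 was the most fully marked of the genes, with all 7 targets in A549 and 5 in B2B. In A549 its H3K27ac peak reached 138-fold at percentile 99.4, its pol II peak 92.0-fold at percentile 96.2 and its Med1 peak 19.7-fold at percentile 92.3. In B2B the H3K27ac peak was 9.03-fold at percentile 95.01, the strongest pol II peak 4.28-fold at percentile 77.4 and the Med1 peak 15.6-fold at percentile 90.3. CXCL2 therefore ranked high in the H3K27ac and Med1 lists of both lines.

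CXCL3 had H3K27ac at 95.9-fold in A549 and 3.89-fold in B2B, at percentiles 89.7 and 58.7. Its Med1 peaks were close in rank, 10.2-fold at percentile 71.3 in A549 and 8.89-fold at percentile 68.3 in B2B. Pol II at CXCL3 was called in A549 alone, at 43.0-fold and percentile 82.4. CXCL1 had H3K27ac at 61.0-fold and percentile 76.5 in A549, and at 2.14-fold and percentile 16.4 in B2B. Its pol II peak in A549 was the weakest of the 5 CXC genes, at 9.42-fold and percentile 57.2. Its Med1 peaks, in B2B alone, were weak, at 4.82-fold and 5.19-fold and percentiles 10.9 and 16.1, with 11 fragments each.

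CXCL5 and CXCL8 departed from the other 3 genes. CXCL5, which encodes the epithelial chemokine ENA-78, had none of the 7 targets in B2B. In A549 it had H3K27ac at 63.4-fold (percentile 80.9), pol II at 24.2-fold (percentile 75.0), H3K4me3 at 20.7-fold and Med1 at 5.55-fold. CXCL8, the gene of interleukin-8, had pol II in both lines, at 47.5-fold and percentile 83.9 in A549 and at 10.5-fold and percentile 57.7 in B2B. It had no H3K27ac peak within 3 kb in either line. Its H3K4me3 peak of 8.17-fold and its Med1 peak of 8.86-fold were in A549 alone.

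The fold enrichments of the lines could not be set against each other at these promoters, since the local backgrounds differed. The lowest background of a list was close between the lines, at 1.65 fragments for pol II in A549 and 1.67 in B2B, at 2.43 and 2.48 for H3K4me3, and at 1.25 and 1.44 for H3K27ac. Over all peaks, however, the median background for H3K27ac was 1.81 times the lowest in A549 and 7.98 times the lowest in B2B, 1.43 and 5.56 times for pol II, and 1.36 and 11.2 times for H3K4me3. The control given to the caller was not stated.

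At CXCL1 the H3K27ac pileup was 136 fragments over a background of 1.25 in A549 and 87 fragments over 40.1 in B2B. At CXCL3 it was 237 fragments over 1.48 in A549 and 123 over 30.9 in B2B. At CXCL2 it was 308 fragments over 1.25 in A549 and 266 over 28.6 in B2B. The pileups of these 3 genes thus lay much closer between the lines than their folds did, with the larger pileup in A549 each time. The same held at the neighbouring promoter of MTHFD2L, a mitochondrial folate enzyme gene, with 307 fragments at 86.1-fold in A549 and 256 at 5.74-fold in B2B. Med1, whose backgrounds were alike in the lines, gave 43 fragments in A549 and 35 in B2B at CXCL2, and 23 and 21 at CXCL3. The pol II pileup of CXCL8 was 125 fragments in A549 and 27 in B2B, over a background of 1.65 and 1.67, so that here the background was alike and the pileups were not. Depths of the libraries were not stated, and no error can be put on these pileups.

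**Figure D2:**
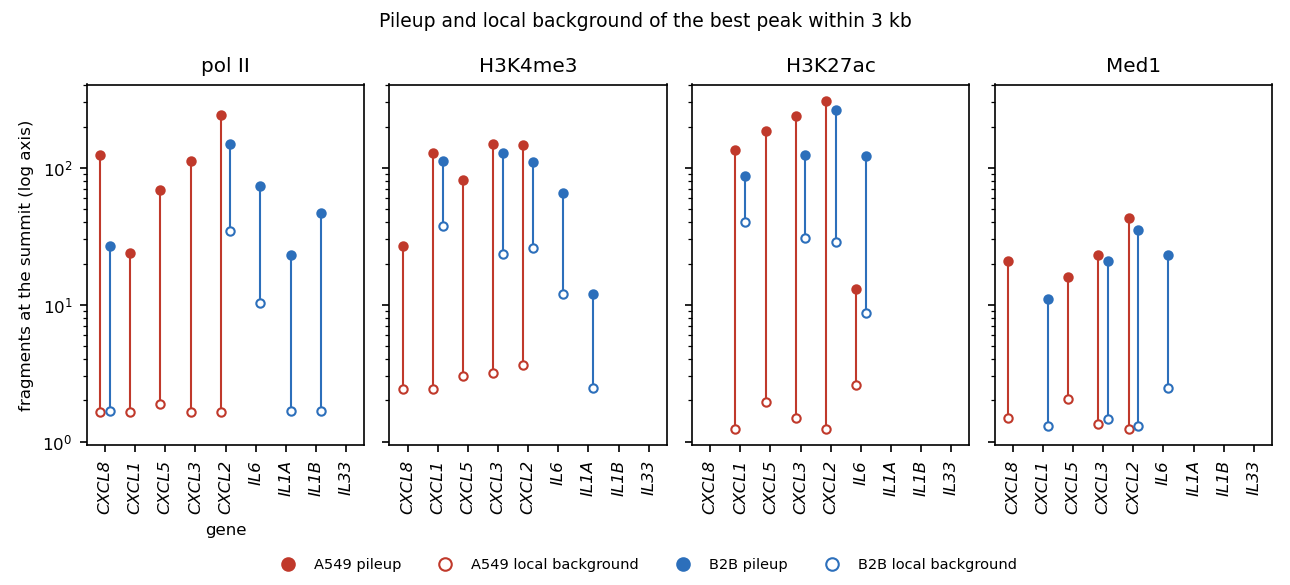
Fragments at the summit (log axis) of the best peak within 3 kb of each gene for pol II, H3K4me3, H3K27ac and Med1, in A549 (red) and B2B (blue). Filled points are pileups and open points local backgrounds. At CXCL1, CXCL3 and CXCL2 the H3K27ac backgrounds were 1.25, 1.48 and 1.25 in A549 and 40.1, 30.9 and 28.6 in B2B.

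IL6 was marked in B2B by 6 of the 7 targets, by CTCF and by Rad21. Its H3K27ac peak was 12.5-fold at percentile 80.6, with a second peak of 7.16-fold. Its strongest pol II peak was 6.64-fold at percentile 71.4, its strongest H3K4me3 peak 5.07-fold at percentile 63.8 and its strongest Med1 peak 6.89-fold at percentile 61.1. In A549 the sole peak within 3 kb was one of H3K27ac, at 3.903-fold and percentile 2.03 with 13 fragments, against 121 fragments in B2B. The IL6 start sites span 1356 bp, and STEAP1B and the antisense gene IL6-AS1 start 373 bp and 380 bp away on the other strand, so that peaks here cannot be given to IL6 alone.

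IL1A and IL1B, which lie 52.3 kb apart on chromosome 2, had peaks within 3 kb in B2B alone. IL1B had pol II at 18.0-fold and percentile 79.1 over its first start site, with 2 weaker peaks of 5.24-fold further in the gene, and Jun at 27.4-fold and percentile 90.1. It had neither H3K4me3 nor H3K27ac in any list. IL1A had pol II at 8.98-fold and percentile 50.01, Jun at 8.32-fold and percentile 39.2, and a weak H3K4me3 peak of 3.74-fold at percentile 2.36. Both genes thus held pol II and Jun in B2B without H3K27ac or Med1. IL33, with 6 start sites, had no peak within 3 kb in any of the 16 lists.

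Jun-family peaks were found at 6 of these promoters. JunB was at 3 genes in A549 (CXCL8, CXCL2 and CXCL3, beside 32.3% of all genes) and at none in B2B (5.77%), so 3 were in A549 alone (27.6%) and none in B2B alone (1.06%). The JunB peak of CXCL3 was weak, 4.59-fold at percentile 5.76 with 13 fragments. With a −log10 q of at least 5, or with lists of equal length, JunB was at 2 genes in A549. Jun was at CXCL8 and CXCL2 in A549 (39.2% of all genes) and at these and IL6, IL1A and IL1B in B2B (27.1%). None was in A549 alone (19.0%), and the 3 interleukin genes were in B2B alone (6.94%). JunD was at CXCL8 and CXCL2 in A549 (17.7%) and at IL6 in B2B (3.68%), which are also its counts for A549 alone (16%) and B2B alone (1.92%). CXCL1, CXCL5 and IL33 had no Jun-family peak within 3 kb in either line.

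At CXCL8 all 3 proteins were called in A549, with Jun at 34.1-fold (67 fragments), JunB at 13.8-fold (41 fragments) and JunD at 7.31-fold (19 fragments). In B2B only Jun was called, at 20.3-fold with 43 fragments. The AP-1 heptamer printed above, 131 to 137 bases before the RefSeq start site, lay 3 bp from the Jun summit of A549, 45 bp from that of B2B, 38 bp from the JunD summit and 53 bp from the JunB summit. At IL1A the Jun summit of B2B lay 4 bp from the centre of its AP-1 heptamer. At IL6 the JunD summit of B2B, in a weak peak of 3.81-fold at percentile 26.8, lay 4 bp from the heptamer near the 5′ end of the printed sequence. The summit of the stronger Jun peak, 12.3-fold at percentile 80.4, lay 37 bp from that heptamer.

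CXCL2 and IL1B had Jun without the heptamer at the summit. At CXCL2 the strongest summits of JunB, Jun and JunD in A549 lay 555 to 578 bp upstream of the start site, and that of Jun in B2B 543 bp upstream. Jun was 25.1-fold in A549 and 5.67-fold in B2B. No heptamer was found within 50 bp of any of them, which says only that these letters are not in that window. At IL1B the Jun summit lay 20 bp from the centre of the C/EBP match.

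Within 100 kb the windows of the 9 genes joined into 4 loci, of which the CXC cluster spanned 559 kb and held the genes in the order CXCL8, CXCL1, CXCL5, CXCL3 and CXCL2. The lines were level in pol II, with 26 peaks each, an A549 share of 50% (Wilson 95% interval 36.9 to 63.1) beside 66.2% on chromosomes 1 to 12. In the CXC cluster the share was 63.0% (44.2 to 78.5), and around IL6 it was 25.0% (7.15 to 59.1) with 2 peaks in A549 and 6 in B2B. Without the CXC cluster it was 36.0%, from 9 A549 and 16 B2B peaks. This percentage thus ran from its highest value in the CXC cluster to its lowest around IL6 among the loci with pol II in both lines, with intervals, for counting error only, that overlapped.

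H3K4me3 had 18 peaks in each line and Med1 16 in A549 and 15 in B2B, with A549 shares of 50% and 51.6% beside 55.6% and 49.2%. For H3K27ac the counts were 22 and 14, an A549 share of 61.1% (44.9 to 75.2) beside 53.3%. For JunB the share was 62.2% (46.1 to 75.9) beside 75.9%, and with lists of equal length it was 39.1%, with 9 peaks in A549 and 14 in B2B. For Jun it was 35.3% (25.0 to 47.2) beside 43.1%, and for JunD 56.3% (33.2 to 76.9) beside 50.9%. Within 100 kb of IL33, A549 had 8 peaks of 6 targets and B2B had 2 CTCF peaks and none of the 7 targets.

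**Figure D3:**
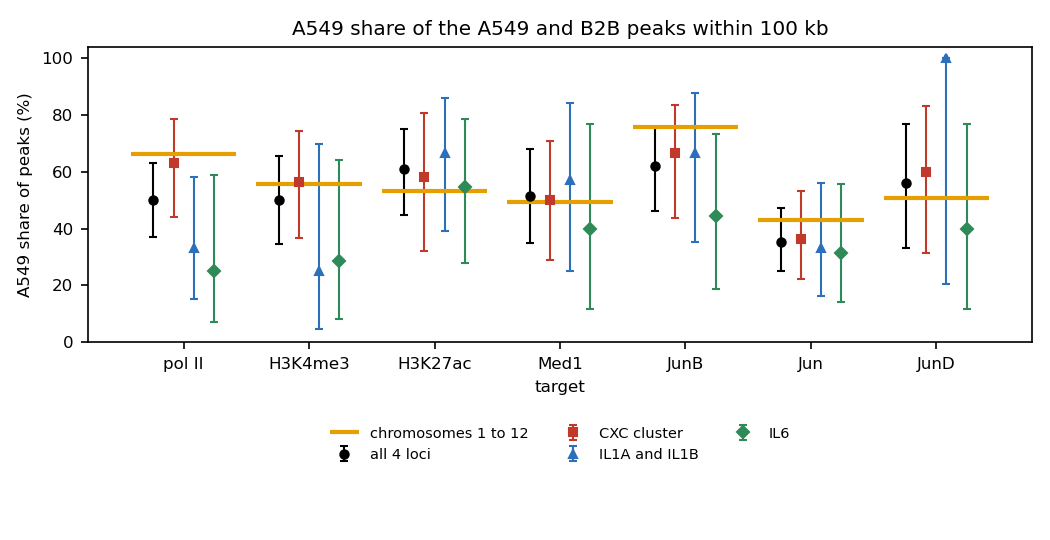
A549 share (%) of the A549 and B2B peaks within 100 kb of the genes by target, for all 4 loci together and for 3 of them, with Wilson 95% intervals as bars. Orange lines give the share on chromosomes 1 to 12. The pol II share was 63.0% in the CXC cluster and 25.0% around IL6.

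Jun-family peaks of both lines merged into 55 regions, of which 19 were called in both lines, 10 in A549 alone and 26 in B2B alone. These are 34.5%, 18.2% and 47.3%, beside 26.9%, 32.8% and 40.3% of the 51488 regions on chromosomes 1 to 12. Within 50 kb the share in A549 alone was 10.8%, 4 of 37 regions. Of the 26 regions in B2B alone, 20 held Jun and neither other protein. All 3 proteins met in 8 regions in A549 and 4 in B2B. The shares of such regions on chromosomes 1 to 12 were not counted, so these counts are not a trait of the loci. In full, the B2B lists held 45047 Jun, 8563 JunB and 8597 JunD peaks, and those of A549 35602, 28068 and 9639. The summits of Jun in B2B had the AP-1 heptamer within 50 bp in 26 of 44 peaks, beside 39.8% of the whole list, and those of JunB in A549 in 14 of 23, beside 46.2%. For JunB in B2B it was 6 of 14, beside 53.6%, for Jun in A549 12 of 24, beside 41.97%, and for JunD 5 of 9 in A549, beside 34.2%, and 6 of 7 in B2B, beside 42.8%.

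The sequences of 3 regions away from the promoters are shown, 81 bases around the strongest Jun-family summit in hg38, with the AP-1 heptamer in capitals where it was found. They are the leading region in both lines and the leading region of B2B alone in the CXC cluster, and the leading shared region of the IL6 locus.
CXCL2 upstream region (chr4:74117173-74117253, plus strand): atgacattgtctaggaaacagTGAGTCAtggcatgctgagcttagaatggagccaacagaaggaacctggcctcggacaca
CXCL1 downstream region (chr4:73917337-73917417, plus strand): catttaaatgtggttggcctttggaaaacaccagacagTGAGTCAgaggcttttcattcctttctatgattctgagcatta
IL6 upstream region (chr7:22718264-22718344, plus strand): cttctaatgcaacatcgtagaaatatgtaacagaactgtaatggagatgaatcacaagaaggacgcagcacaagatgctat

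The first lies in an intron of MTHFD2L, 18.0 kb upstream of CXCL2. It held all 3 proteins in A549, with JunB at 26.2-fold (percentile 96.0), Jun at 22.4-fold and JunD at 8.72-fold, and in B2B Jun at 22.6-fold and JunB at 8.15-fold. Pol II overlapped it in A549, and in B2B a weak Med1 peak of 4.01-fold at percentile 1.05. The second lies between genes 47.9 kb downstream of the CXCL1 start site, with Jun at 31.4-fold and percentile 92.0 in B2B. It had no Jun-family peak in A549. The B2B peaks of CTCF and Rad21 over it were weak, at 4.78-fold and 5.65-fold and at percentiles 3.50 and 6.03.

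A further region 10.5 kb upstream of CXCL2, named after its values were seen, held all 3 proteins in both lines. Jun was 18.4-fold in A549 and 35.6-fold in B2B, and JunB 18.4-fold and 7.02-fold. Pol II and Med1 overlapped it in each line, and CTCF and Rad21 in B2B. The CTCF peaks ranked at percentiles 3.50 and 32.6, and Rad21 at 19.3. Another, 18.05 kb upstream of CXCL3 and also chosen after its values were seen, had Jun at 41.4-fold (percentile 95.5), JunB at 16.7-fold and JunD at 10.3-fold in A549. In B2B it had Jun alone, at 6.47-fold and percentile 21.1. Toward CXCL8, regions 35.8 kb and 32.5 kb upstream held JunB and Jun in both lines and JunD in B2B alone. The flanks of CXCL2 and CXCL8 thus held Jun-family peaks in both lines, also where the promoter lacked JunB in B2B.

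**Figure D4:**
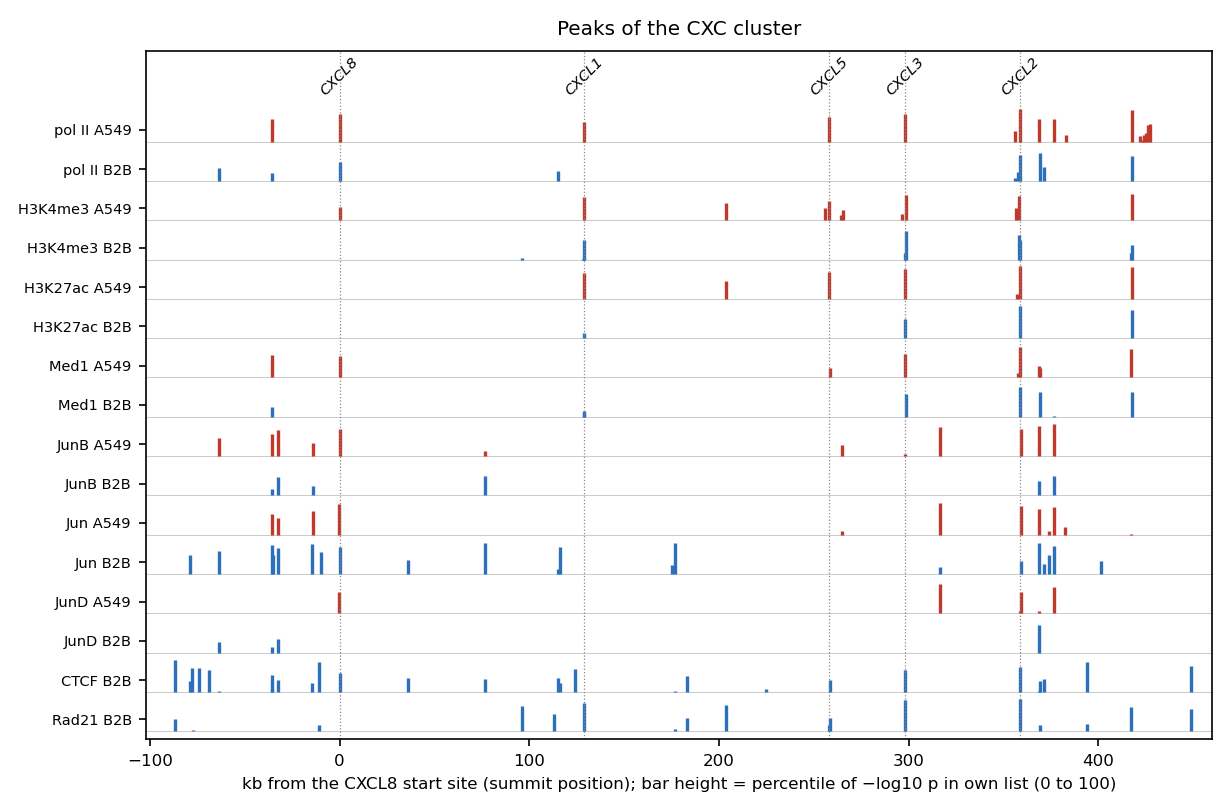
Peaks of the CXC cluster in each list (rows), placed by summit in kb from the CXCL8 start site along the chromosome. Bar height is the percentile of −log10 p in its own list (0 to 100), red is A549 and blue B2B, and dotted lines mark the start sites. H3K27ac stood at CXCL1, CXCL5, CXCL3 and CXCL2 in A549, not at CXCL5 in B2B, and at CXCL8 in neither line.

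The third printed region lies in an intron of STEAP1B, 7.48 kb upstream of IL6. All 3 proteins were called there in both lines, with Jun at 43.6-fold (percentile 96.1) in A549 and 28.6-fold (percentile 89.95) in B2B. JunB was 10.7-fold in A549 and 4.42-fold in B2B. In A549 it also held pol II at 19.7-fold, H3K27ac at 7.53-fold, Med1 at 3.78-fold and, at its edge, H3K4me3 at 4.87-fold, and in B2B of these only pol II, at 4.86-fold. The Med1 peak of A549 here was weak, at percentile 3.02. A549 therefore had pol II and H3K27ac at this region, and at the IL6 promoter no pol II and only the weak H3K27ac peak at percentile 2.03. B2B had both at the promoter and, at this region, pol II without H3K27ac. The IL6 locus also held a region in A549 alone 57.9 kb upstream, with Jun at 40.1-fold and both partners. In B2B alone, a region over an IL6 exon 4.26 kb from the nearest start site had Jun at 28.0-fold and JunB at 5.77-fold, under pol II and CTCF peaks.

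In the IL1A and IL1B locus the leading shared region lies over an exon of CKAP2L, 47.4 kb downstream of the IL1A start site, with Jun at 42.3-fold in A549 and 17.6-fold in B2B. Of B2B alone, the leading region lies 19.1 kb downstream of the IL1B start site, with Jun at 10.6-fold and JunB at 4.42-fold under pol II and CTCF peaks, and the leading region of A549 alone had Jun at 6.51-fold. Around IL33 the sole region was in A549, 62.1 kb upstream, with Jun at 9.52-fold and JunB at 7.54-fold. In the CXC cluster the leading region of A549 alone lay 6.96 kb upstream of CXCL5, with JunB at 6.23-fold and Jun at 5.98-fold, overlapped by H3K4me3 in A549.

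Acetylated elements away from any start site were few. Of 22 H3K27ac peaks in A549, 9 lay over 1 kb from every start site and 4 of these overlapped Med1, and of 14 in B2B the counts were 4 and 1. Of the 4 in A549, 2 also carried a Jun-family peak, the IL6 region above and one 91.5 kb downstream of the IL1A start site. The latter had H3K27ac at 24.3-fold in A549 and was also the single element of B2B, at 5.55-fold. Near IL33 an element 32.8 kb upstream had H3K27ac at 13.04-fold, pol II at 15.3-fold and H3K4me3 at 14.8-fold in A549, with no Jun-family peak. In the CXC cluster no distal H3K27ac peak overlapped Med1 in either line. Med1 was at 9 distal peaks in A549 and 6 in B2B over all loci, and a Jun-family peak overlapped 7 and 5 of them, beside 58.7% and 51.0% of all distal Med1 peaks on chromosomes 1 to 12.

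**Figure D5:**
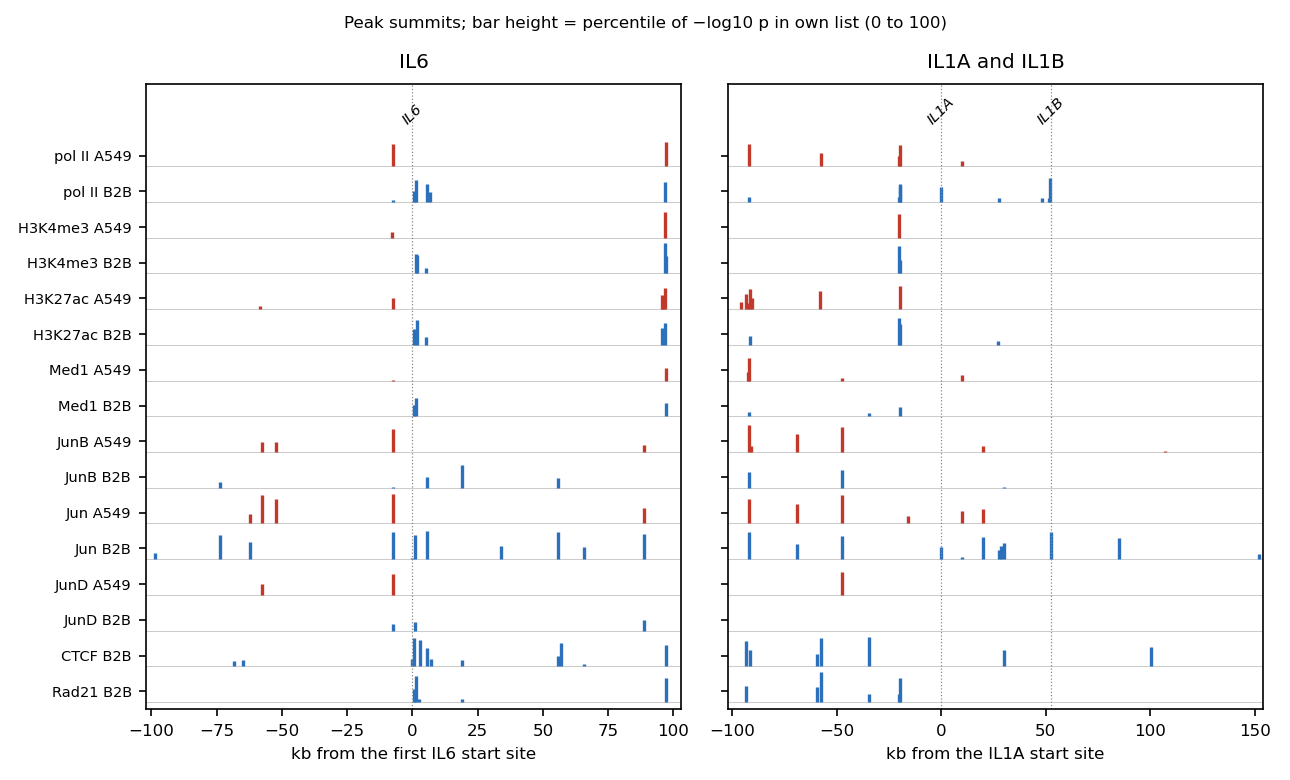
Peaks around IL6 (left) and around IL1A and IL1B (right) in each list, placed by summit in kb from the first IL6 start site or from the IL1A start site along the chromosome. IL1A and IL1B are read from right to left, bar height is the percentile of −log10 p in its own list, and red is A549 and blue B2B. The pol II peaks at the IL6, IL1A and IL1B start sites were in B2B alone.

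In B2B, 49 CTCF and 28 Rad21 peaks lay within 100 kb, and 19 of the CTCF peaks (38.8%) overlapped Rad21, beside 35.8% on chromosomes 1 to 12. A Jun-family peak of B2B overlapped 23 of the 49, beside 26.6% of the CTCF peaks on chromosomes 1 to 12. At promoters CTCF was at IL6, CXCL8, CXCL2, CXCL3 and CXCL5 (5 of 9, beside 50.9% of all genes) and Rad21 at IL6, CXCL1, CXCL2, CXCL3 and CXCL5 (5 of 9, beside 68.1%). IL6 had the strongest CTCF at a member promoter by rank, 26.5-fold at percentile 94.5, with another peak of 32.7-fold at percentile 86.3 inside the gene, and Rad21 at 12.4-fold. In the CXC cluster the strongest CTCF peak with Rad21 lay 86.7 kb upstream of CXCL8, at 50.2-fold and percentile 94.7. Rad21 at CXCL2, CXCL3 and CXCL1 ranked at percentiles 96.0, 94.0 and 85.004 with 276, 270 and 172 fragments, over backgrounds 24.7, 28.6 and 23.4 times the lowest of the list.

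Other genes of the same pathways were scored in the same way, those on chromosomes that some lists did not reach only for the lists that did. Of 12 other CXC ligands, 9 had no H3K4me3 peak in either line. CXCL12 had it in A549 alone (12.8% of all genes) and CXCL6, a gene inside the CXC cluster, in B2B alone (1.26%). The platelet chemokine genes PF4 and PPBP of the cluster had no peak in any list. Of 8 other IL-1 family genes, 7 had neither H3K4me3 nor pol II in either line, and IL18 had both in both. Among 6 IL-6 family cytokines, H3K4me3 was in both lines at 4 and in A549 alone at OSM. The shares of all genes with a mark in both lines or in neither are not given here.

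Of 10 receptor genes, pol II was in both lines at 5 and in A549 alone at 2, near the 18.5% of all genes in that class. The 2 are IL1R1 and IL1R2, the signalling and the decoy receptor of IL-1. These 2 genes, named after their values were seen, also had H3K27ac and Med1 in A549 alone (11.2% and 3.99% of all genes). CXCR1, CXCR2 and IL1RL1 had no pol II peak in either line. All 14 signalling and transcription genes, among them MYD88, NFKB1, RELA and CEBPB, had H3K4me3 in both lines. Of all genes, 74.6% had it in A549 and 63.1% in B2B. A Jun-family peak was in A549 alone at 8 of the 14 and in B2B alone at none. Over all genes, with and without H3K4me3, these classes held 23.8% and 5.97%.

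By the presence of a peak in the 14 lists of the 7 targets, no other gene of the 12573 had the pattern of IL6 or CXCL8. That of IL1A was shared by 2 other genes and that of IL1B by 6. How many of all genes have an unshared pattern was not counted, so these numbers have no base rate. The IL6 pattern includes the weak A549 H3K27ac peak at percentile 2.03, and the IL1A pattern the H3K4me3 peak of B2B at percentile 2.36. The pattern of CXCL2 was shared by 575 other genes, that of CXCL1 by 182, that of CXCL5 by 89 and that of CXCL3 by 38. By the distance between percentiles over all 16 lists, a description with no test, the nearest genes to IL6 were PDGFRB, SLC2A2 and CDKN2A. CDKN2A, which A549 cells lack, matched IL6 in the presence or absence of a peak in 14 of the 16 lists. The nearest to CXCL8 was XDH, to CXCL1 ZNF365, to CXCL3 STBD1, to CXCL5 RASAL1 and to IL1A RTP4, and HES1 was among the 3 nearest to CXCL2.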

How the data were processed

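ChIP-seq of 9 targets was deposited as peak lists, 1 for each target and line. The authors' notes name Bowtie2 2.4.4 for alignment to hg38, SAMtools 1.13 for merging 2 replicates and scaling by CPM, and MACS2 2.2.7.1 for peaks, after removal of duplicates. Options and control are not given in the sources used here. The authors deposited for each peak a score (10 times −log10 q, rounded down), a ratio (fold enrichment at the summit) and −log10 p. The lists reach a q-value of 0.01.

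Start sites came from GENCODE release 44. Pileup and local background were solved from fold, with 1 added to each as the caller does, and Poisson p for 100% of peaks, after a test on simulated data. Some lists stop short of the last chromosomes, so backgrounds use chromosomes 1 to 12, which hold all members. Intervals are Wilson 95% intervals (SciPy 1.17.1). Python 3.11.15, NumPy 2.4.6, pandas 2.3.3, pysam 0.24.0 and Matplotlib 3.10.9 were used. Depth per library was not stated, and lists held 8563 to 61225 peaks. The 4 inputs have no list used here.

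The genes and lists were chosen with earlier results of these data known. Named are the 9 genes, the leading Jun-family region per locus and class (most proteins, then percentile), pathway genes with H3K4me3 in 1 line, and the 3 nearest genes by percentile distance. Other genes were named after their values were seen. Alternatives were other distances, a −log10 q of at least 5, lists of equal length, covered bases, summits, the gene start alone and loci left out.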

Additional observations from a re-analysis of the deposited data

How the results depend on the processing

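Of the 94 alternative values for genes with a peak within 3 kb, 93 stayed within 1.5 times the reported count, and of 63 alternative A549 shares of peaks, 61 stayed within the reported interval. Inside the limit of 1.5 times, JunB in A549 fell from 3 genes to 2 in the stricter and the equal-length lists. The 15 alternative shares of Jun-family regions lay within the Wilson intervals of the reported ones, but the share in A549 alone moved by over 1.5 times within 50 kb, to 10.8% (4 of 37 regions) from 18.2% (10 of 55). The other exceptions were JunB in B2B, which reached 1 gene within 5 kb in place of 0, the A549 share of pol II without the CXC cluster (36.0%) and that of JunB with lists of equal length (39.1%). The first gains a gene through the wider window, the second leaves out the locus with most A549 peaks, and the third drops the weaker JunB peaks of A549. No paired analysis was possible because the replicates were merged before peaks were called and no result comes from a test. Lists without replicates, unstated depth and unlike local backgrounds limit all comparisons of levels between the lines, and a missing peak says only that none passed the threshold of the caller.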

Other observations

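Within the same windows, promoters of genes that are not on the list were also marked, and those named here were chosen after their values were seen. TOMM7, a subunit of the mitochondrial import machinery 95.5 kb from IL6, had H3K27ac at 21.9-fold with 106 fragments in A549 and at 9.13-fold with 109 fragments in B2B. CKAP2L, a mitotic spindle gene beside IL1A, had H3K27ac at 45.4-fold with 147 fragments in A549 and at 9.33-fold with 192 in B2B. CXCL1P1, a pseudogene of CXCL1 between CXCL1 and CXCL5, had H3K27ac at 14.4-fold and H3K4me3 at 16.3-fold in A549 and neither in B2B. Whether reads of CXCL1 reached this copy was not tested. PF4V1, a platelet factor gene of the cluster, had pol II, Jun, CTCF and Rad21 peaks in B2B and none of the 7 targets in A549.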
